A study of Mus musculus with 18 samples.

Results

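The genes described here are 175 annotated microRNA loci of a mouse fibroblast RNA-seq table. They are the genes whose symbol is Mir or Mirlet followed by a number, without host genes whose symbol ends in hg, and with at least 50 counts summed over the 18 libraries. The table held 1180 such loci among 47937 gene IDs. Of these, 579 had no count, 426 had between 1 and 49 counts and 175 passed, with 27 at 50 to 59 counts just inside the minimum and 41 at 40 to 49 counts just outside it. The loci were chosen by name and total count. That total includes the activator libraries, and 16 loci passed the minimum only with the counts of the induced activator libraries and 28 only with those of the uninduced ones, so for these the choice was not independent of the level there.

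The libraries came from mouse embryonic fibroblast (MEF) lines in which doxycycline turns on a dCas9, a Cas9 that binds a chosen DNA sequence without cutting it, aimed at the major satellite repeat (MSR) of pericentromeric heterochromatin. The control line carried dCas9-control and was induced with 10 ng/ml doxycycline for 24 h. The repressor line carried dCas9-KM and was induced with 100 ng/ml for 24 h. The activator line carried dCas9-VPR and was induced with 10 ng/ml for 6 h. Each line gave 3 uninduced and 3 induced libraries, all grown under hygromycin in tetracycline-free serum. The labels state neither whether a line was 1 clone nor whether the libraries of a group came from separate cultures. The p-values therefore rest on differences among these libraries alone, and that spread may be technical. The control line was not induced for 6 h or with 100 ng/ml, so the effector cannot be told apart from time or dose in a comparison between lines.

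Most microRNAs begin as long primary transcripts made by RNA polymerase II, either from their own promoters or inside an intron of a host gene. In the nucleus, Drosha and its partner Dgcr8 cut out the hairpin, Xpo5 exports it, Dicer1 cuts it to the mature microRNA and an Argonaute protein such as Ago2 holds the mature strand, whose seed (bases 2 to 8) pairs with target messages. Drosha cuts intronic hairpins mostly while the host is being transcribed, so the primary form is short-lived. The libraries were made from rRNA-depleted total RNA and are not designed to capture mature microRNAs. Reads on a hairpin come from a primary transcript, or from an intron or exon that spans it, and mature microRNA levels were not measured.

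The 175 loci held 28212 counts, 0.0078% of the table, with a median of 106 summed counts per locus and a maximum of 1607. Their hairpins span 57 to 139 bp (median 84) in the mouse annotation (GENCODE release M21, GRCm38). By position, 118 lay in an intron of another gene on the same strand, 17 overlapped an exon of another gene, 34 lay outside genes and 6 lay on the opposite strand of a gene. Genes whose symbol begins with Mir or Mirlet and a number, host genes ending in hg included, were not searched as hosts. A locus inside only such a gene is thus placed outside genes or on an opposite strand. 14 groups of loci within 10 kb of each other on the same strand held 32 of the 175 loci. RefSeq (GRCm38.p6) gave mature sequences for 158 loci, with 240 different seeds, of which 16 were shared by at least 2 loci.

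The mature sequences below belong to the loci that the results turn on, printed 5′ to 3′ with the seed in capitals. The first 6 belong to let-7 loci and the seventh to Mir98, and these share 1 seed. The next 3 share the miR-99/100 seed, and those of Mir221 and Mir222 share another one. The last 4 come from loci without a shared seed among those shown, namely Mir31, Mir763, Mir3109 and Mir5104.
let-7a-5p: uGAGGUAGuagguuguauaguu
let-7f-5p: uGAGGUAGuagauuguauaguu
let-7b-5p: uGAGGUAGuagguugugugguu
let-7c-5p: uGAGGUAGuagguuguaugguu
let-7e-5p: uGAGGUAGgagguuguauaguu
let-7g-5p: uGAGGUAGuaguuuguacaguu
miR-98-5p: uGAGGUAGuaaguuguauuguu
miR-99a-5p: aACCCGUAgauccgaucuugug
miR-99b-5p: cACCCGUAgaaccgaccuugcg
miR-100-5p: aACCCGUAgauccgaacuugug
miR-221-3p: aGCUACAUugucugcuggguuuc
miR-222-3p: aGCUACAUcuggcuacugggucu
miR-31-5p: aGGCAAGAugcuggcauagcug
miR-763: cCAGCUGGgaagaaccaguggc
miR-3109-5p: aAUGGAUGcgaugguucccaugcu
miR-5104: cUGUGCUAgugagguggcucagca

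Libraries held between 14928765 and 25262912 counts. Levels are CPM (counts scaled to a common library size by TMM), and a change is called, and written as rose or fell, where the edgeR quasi-likelihood test gave an adjusted p below 0.05 (Benjamini-Hochberg over 17795 genes with at least 50 summed counts). Of the 10 fibroblast markers looked up, 9 were tested, among them Col1a1 at 8060 ± 98.9 CPM in uninduced activator libraries (SD, n = 3), while Thy1 had no count in 5 of the 6 groups. The epithelial markers Epcam and Krt5 and the muscle regulator Myod1 had no count in any group. Pluripotency markers summed to at most 1.52 CPM in any library, epithelial markers to at most 4.46 CPM, muscle markers to at most 5.27 CPM and macrophage and blood markers to at most 8.39 CPM. The neural list, almost all Tubb3, summed to 33.7 to 35.4 CPM in uninduced and 20.6 to 21.6 CPM in induced activator libraries, and to 52.3 to 53.4 CPM in induced repressor libraries.

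The microRNA loci were lower as a group in the induced activator libraries. Their summed level was between 82.5 and 84.2 CPM in the uninduced activator libraries (83.5 ± 0.872, SD, n = 3) and between 48.8 and 50.4 CPM in the induced ones (49.4 ± 0.883), 0.591 times as high. In the control line the sum was 84.6 ± 3.08 CPM uninduced and 80.8 ± 1.83 CPM induced, and in the repressor line it was 84.9 ± 1.88 and 79.8 ± 3.08 CPM. The 3 induced activator libraries lay below each of the other 15 libraries. In bulk RNA, fewer cells that make a transcript and less of it per cell cannot be told apart.

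**Figure D1:**
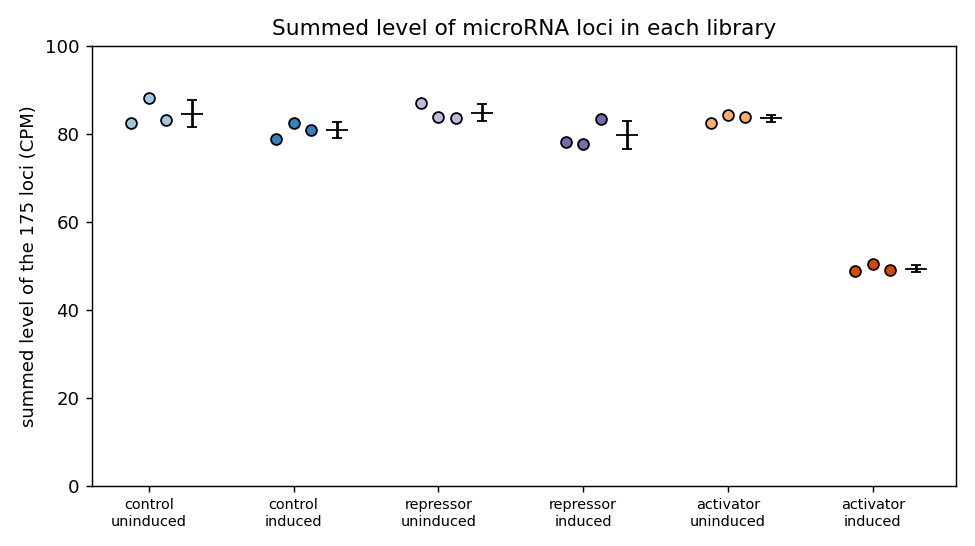
Summed level of the 175 microRNA loci in each of the 18 libraries, in CPM on an axis from 0. Points are libraries, and the bar beside each group is the mean ± SD of 3. The induced activator libraries sit between 48.8 and 50.4 CPM, below the range of the other 5 groups.

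In the activator line 73 of the 175 loci fell (41.7%), 13 rose (7.43%) and 89 were not called. Among all 17795 genes tested, 34.9% were called lower and 35.5% higher in the same comparison. Among the 7161 other genes with summed counts in the range of the microRNA loci, 23.0% were called lower and 29.8% higher. The median log2 fold change of the loci was −0.97 (quartiles −1.68 and −0.33), against −0.00068 for all genes (quartiles −0.55 and 0.41), and 143 of the 175 estimates were below 0. With levels scaled to the mitochondrially encoded genes in place of TMM, 117 loci were called lower and 3 higher. DESeq2 called 53 lower and 7 higher. Of the 16 loci that passed the minimum only with the induced activator counts, 2 were among the rises and 0 among the falls. Of the 28 that passed only with the uninduced activator counts, 5 were among the falls and 0 among the rises. These counts describe the loci that passed and are no support for a direction.

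Other short or intronic transcript classes of the annotation also had more falls than rises. Sense-intronic transcripts had 71.4% called lower and 5.36% higher over 168 genes (median −1.16), and small nucleolar RNAs had 50.2% lower and 5.42% higher over 203 genes (median −0.86). Protein-coding genes had 36.3% lower and 40.2% higher over 12893 genes (median 0.03), and processed pseudogenes had 8.37% lower and 31.7% higher over 1446 genes (median 0.33). These shares were set side by side and not tested against each other.

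**Figure D2:**
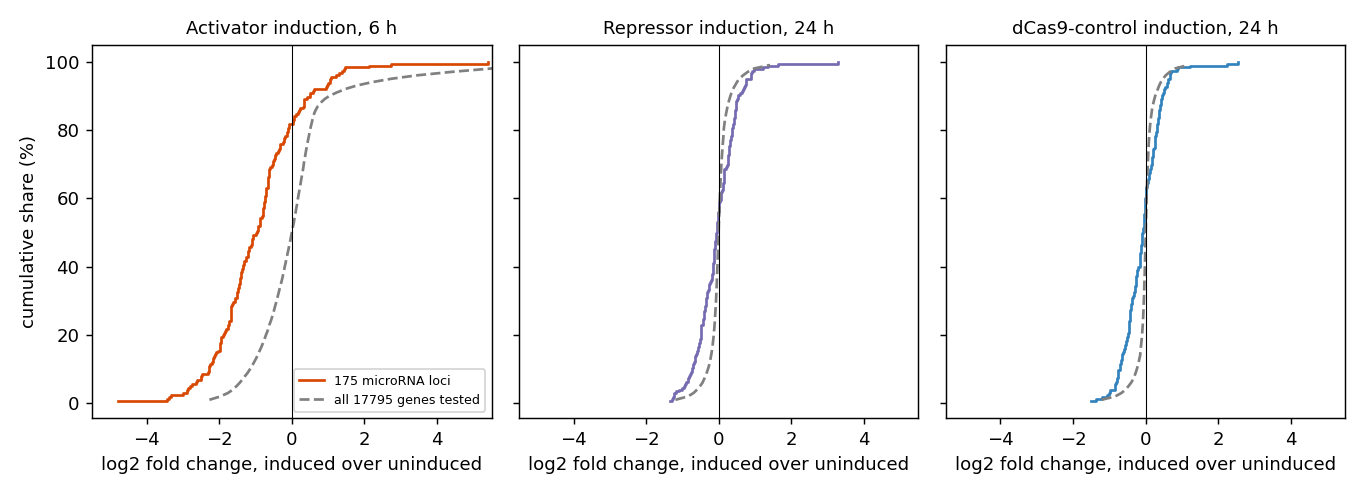
Cumulative distribution of the log2 fold change on induction for the 175 microRNA loci (solid line) and for all 17795 genes tested (dashed line, from the 1st to the 99th percentile), in 3 panels for the activator, repressor and control lines. The median of the loci is −0.97 in the activator panel, −0.05 in the repressor panel and −0.08 in the control panel.

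Mir763 had the highest counts of the list (1607 in all) and a mature strand printed above. It lies in an intron of Hmga2, a chromatin-binding protein of growing embryonic cells (ENSMUSG00000076448.1, chromosome 10, 120447991 to 120448110, minus strand). It was at 6.98, 6.87 and 6.56 CPM in the uninduced and 0.601, 0.664 and 0.614 CPM in the induced activator libraries, so the groups lie far apart. The log2 fold change was −3.44 (SE 0.19, adjusted p = 5.8e-30). Its host Hmga2 fell too, by less, from 576 ± 4.68 to 164 ± 9.75 CPM (log2 fold change −1.81).

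Mir31, a microRNA known for repressing invasion-related genes, overlaps an exon of the noncoding gene AL805899.1 on chromosome 4 (88910557 to 88910662). It was at 1.80, 1.78 and 1.52 CPM before and 0.437, 0.133 and 0.512 CPM after activator induction. No induced library reached the lowest uninduced one, and the log2 fold change was −2.17 (SE 0.31, adjusted p = 1.41e-09).

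Mir221 and Mir222 lie close together on the X chromosome (19146294 to 19146971), outside the genes searched as hosts, and share a seed. They are known for repressing cell-cycle inhibitors and the Kit receptor. Mir221 was at 1.04, 1.37 and 2.07 CPM uninduced and 0.0546, 0.199 and 0.460 CPM induced, with 94 counts against 13 (log2 fold change −2.50, SE 0.38, adjusted p = 9.5e-09). Mir222 had 17 counts in the uninduced and 1 in the induced activator libraries, a ratio of 13.5 with an exact 95% interval of 2.12 to 564 that covers counting error only (adjusted p = 0.00085). Both loci of the pair thus fell, and in each the 3 induced libraries lay below the 3 uninduced ones.

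Among the 10 loci with the highest mean CPM, which are not corrected for hairpin length, 8 fell and 2 rose. Of all genes tested, 34.9% were called lower and 35.5% higher. Besides Mir763 and Mir31, the falls among the 10 loci were Mir5125 (log2 fold change −0.52), Mir8091 (−0.70), Mir1898 (−1.11), Mir1191b (−1.66), Mir3109 (−1.87) and Mir186 (−0.62). The rises were Mir7-1 (0.51) and Mir703 (0.50), and under the mitochondrial scaling both were −0.23 and not called. Leaving out activator induced library 1 or 2, or uninduced library 1 or 3, ended the call of Mir186, as did relative log expression and upper-quartile scaling, DESeq2, limma-voom and the fit of the 2 groups alone (adjusted p up to 0.185). Under total counts, DESeq2 and no filter, Mir7-1 and Mir703 were not called either. The call of Mir7-1 was lost also without induced library 3 or uninduced library 1 or 2 (up to 0.328), and that of Mir703 without induced library 1 or uninduced library 2 or 3 (up to 0.311).

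Apart from Mir763, the called loci with the largest changes were low in count, among them Mir222, given above, and the riser Mir5104, given below. Mir453 had 11 counts uninduced and none in the induced activator libraries, at least 2.91-fold lower with a floor of 3 counts over the group. Mir3108 had 29 counts against 2 (ratio 11.5, exact interval 2.91 to 99.6), Mir6352 21 against 2 (8.34, 2.04 to 73.3) and Mir30b 20 against 2 (7.94, 1.93 to 70.1). Mir505 had 13 against 1 (10.3, 1.55 to 439), and Mir6904 and Mir7655 each had 12 against 1 (9.53, 1.41 to 407). These intervals cover counting error only, and Mir453, Mir6904 and Mir7655 passed the 50-count minimum only with the uninduced activator libraries. The call of Mir505 was lost without uninduced library 3 (adjusted p = 0.0523), that of Mir6904 without induced library 1 or uninduced library 2, and that of Mir7655 without induced library 1 or 3 or uninduced library 1.

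**Figure D3:**
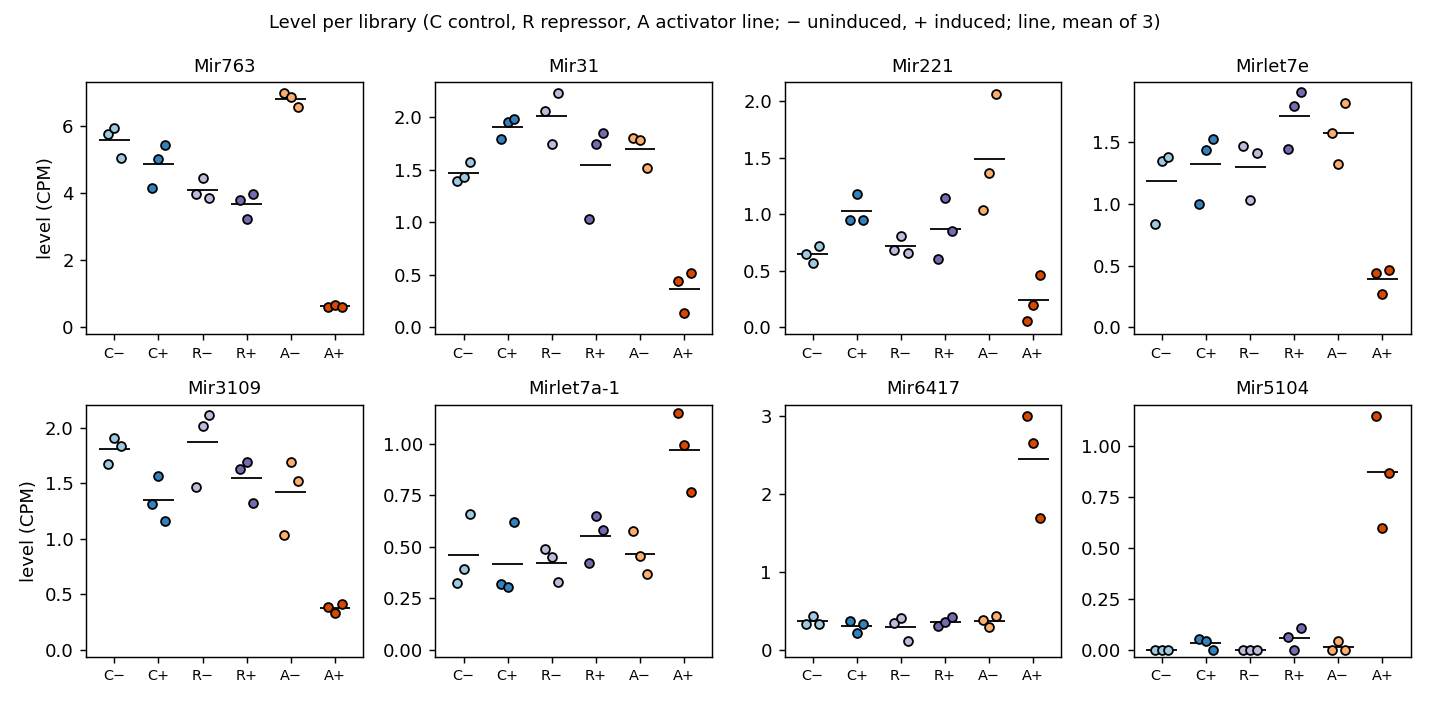
Level in CPM of 8 microRNA loci in each library, by group: C control, R repressor and A activator line, − uninduced and + induced. Points are libraries and lines are means of 3. Mir763, Mir31, Mir221, Mirlet7e and Mir3109 are lowest in the induced activator libraries, and Mirlet7a-1, Mir6417 and Mir5104 are highest there.

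The let-7 family is known for restraining growth genes such as Hmga2 and Lin28b. Of the 8 Mirlet7 loci and Mir98, 5 fell, 1 rose and 3 were not called. Over all 175 loci 41.7% fell and 7.43% rose, and over all genes tested 34.9% were called lower and 35.5% higher. Mirlet7e was at 1.57, 1.32 and 1.82 CPM uninduced and 0.437, 0.266 and 0.460 CPM induced in the activator line (log2 fold change −1.95, SE 0.32, adjusted p = 5.8e-08). Mirlet7b, at 0.345, 0.538 and 1.15 CPM, went to 0.109, 0.133 and 0.153 CPM (−2.18, SE 0.54, adjusted p = 0.00023). In both loci the induced libraries lay below each uninduced one.

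Mirlet7a-1, which makes the let-7a printed first above, rose. It was at 0.576, 0.455 and 0.365 CPM uninduced and 1.15, 0.996 and 0.767 CPM induced, with 32 and 51 counts (log2 fold change 1.00, SE 0.34, adjusted p = 0.0070). Under the mitochondrial scaling its log2 fold change was 0.27 and not called (adjusted p = 0.480). The locus overlaps an exon of the noncoding gene 6720427I07Rik on chromosome 13 (48538179 to 48538272), which rose from 20.6 ± 0.828 to 26.04 ± 0.924 CPM (log2 fold change 0.33, but −0.40 with the mitochondrial scaling). Its neighbour in the same gene, Mirlet7f-1, was not called (−0.18, adjusted p = 0.694).

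The other let-7a locus, Mirlet7a-2, lies beside Mir100 in the noncoding gene 3110039I08Rik on chromosome 9. It had 17 counts uninduced and 4 induced (log2 fold change −1.68, adjusted p = 0.0341), and its host fell from 249 ± 6.42 to 41.5 ± 4.94 CPM (−2.58). The call was lost without activator induced library 2 or 3 or uninduced library 3, and under DESeq2 and limma-voom (adjusted p up to 0.197). Mirlet7c-1 fell (−1.33, adjusted p = 0.0093) except without induced library 3 or uninduced library 2 (up to 0.137). Mirlet7c-2 fell by the narrowest margin (−1.09, adjusted p = 0.04997), and its call was lost in 7 processing alternatives and when any 1 of 13 libraries was left out (up to 0.265). Mirlet7g (−0.14) and Mir98 (−0.51) were not called.

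**Figure D4:**
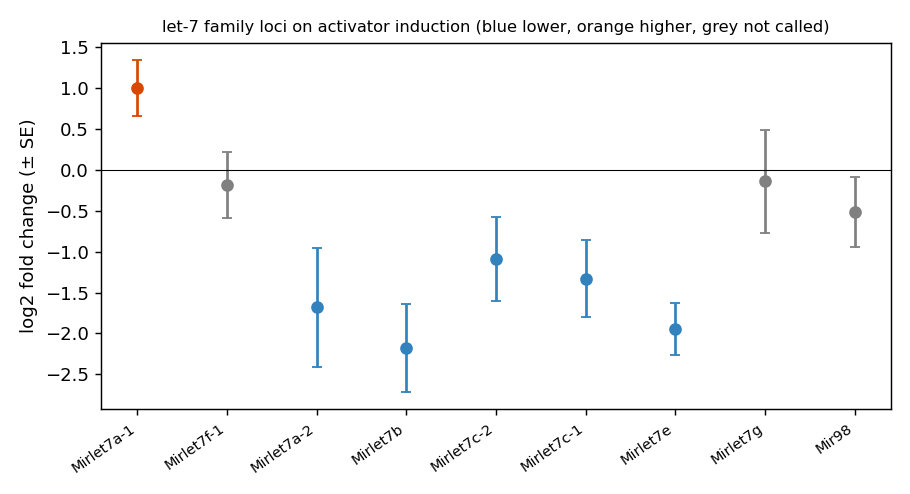
Log2 fold change ± SE on activator induction for the 8 Mirlet7 loci and Mir98, which carries the same seed. Mirlet7a-1 is called higher at 1.00, Mirlet7f-1, Mirlet7g and Mir98 are not called, and the other 5 are called lower between −1.09 and −2.18.

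The miR-99/100 group, which shares a seed and in 3 places sits beside a let-7 locus, fell at each of its 3 loci. Mir99b, next to Mirlet7e in an intron of Spaca6, was at 1.30, 1.41 and 1.28 CPM uninduced and 0.328, 0.730 and 0.460 CPM induced (a log2 change of −1.43). Mir99a had 31 counts uninduced against 6 induced (−1.97) and Mir100 had 27 against 5 (−2.03). Mir99a is 1 of the 6 loci placed on the opposite strand of a gene, so reads of that gene cannot be told apart from its own. Summed over each pair, Mir99b and Mirlet7e went from 2.90 ± 0.186 to 0.894 ± 0.118 CPM, Mir99a and Mirlet7c-1 from 1.06 ± 0.251 to 0.370 ± 0.188 CPM, and Mir100 and Mirlet7a-2 from 0.708 ± 0.340 to 0.177 ± 0.0824 CPM. Paired ends that span neighbouring hairpins may link their counts.

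In other clusters some loci were called and their neighbours were not, and the difference between neighbours was not tested. In the muscle and fibroblast cluster of Mir143 and Mir145a, Mir145a fell (20 counts uninduced against 3 induced, log2 fold change −2.29) and Mir143 was at 9 counts against 5 (−0.49, not called). On the X chromosome Mir322 (−1.27) and Mir503 (−2.11), which belong to the miR-16 family group known for slowing the cell cycle, fell, while Mir351 beside them was not called (−0.74). Without activator induced library 1, Mir322 was not called (adjusted p = 0.195). Mir15b and Mir16-2, in an intron of the condensin gene Smc4, were not called (−0.20 and 0.61), nor was Mir15a in Dleu2 (0.20). In the miR-23/27/24 clusters Mir23a (−1.40) and Mir27b (−1.49) fell, and Mir27a, Mir23b and Mir24-1 were between −0.89 and −1.10 without a call. Mir23a lost its call without induced library 1 or uninduced library 2 (adjusted p up to 0.0745).

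Of the 39 loci on a list of well-studied microRNAs, 19 fell, 2 rose and 18 were not called (median −1.27). Over all 175 loci 41.7% fell and 7.43% rose, and over all genes tested 34.9% were called lower and 35.5% higher. Further falls on the list were Mir29a, known for repressing collagen messages (50 counts against 10, log2 fold change −1.95), and Mir140, the cartilage microRNA in Wwp2 (22 against 5, −1.74). Mir140 was not called without induced library 1 (adjusted p = 0.0563). The rise besides Mirlet7a-1 was Mir103-2 in the pantothenate kinase gene Pank2 (12 counts against 24 on induction, 1.31). Leaving out induced or uninduced library 2 ended that call, as did total-count scaling, mitochondrial scaling and DESeq2 (adjusted p up to 0.351). Mir30a, Mir30e, Mir26a-1, Mir26b, Mir218-1, Mir218-2, Mir378a and Mir10a were between −0.65 and −1.38 and were not called.

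Among the 13 risers, named here after their values were seen, Mir6417 kept the call in every alternative that tested it. Mir5104 and Mir148a kept it too, but both passed the 50-count minimum only with the induced activator libraries, where they are high (6 and 36 counts in the other 15 libraries), so their rises are descriptions. Mir5104 lies in an intron of Zc3h12d, an RNase-family gene of immune cells (chromosome 10, 7836381 to 7836474). It had 1 count in the uninduced and 47 in the induced activator libraries, at 1.15, 0.598 and 0.870 CPM, a ratio of 59.2 with an exact interval of 10.1 to 2387. Zc3h12d itself went from 0.143 ± 0.0910 to 16.6 ± 1.71 CPM (log2 fold change 6.88). In each of the other 5 groups Mir5104 had at most 3 counts, so this ratio belongs to a locus that entered through its high group.

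Mir6417 lay outside the genes searched as hosts, with Dhx15 as the nearest coding gene on its strand at 14186 bp. The level of Mir6417 was 0.384, 0.290 and 0.426 CPM uninduced and 3.004, 2.66 and 1.69 CPM induced (a log2 change of 2.73, SE 0.30, adjusted p = 9.4e-14). Mir148a had 6 counts uninduced against 22 induced (2.14, SE 0.63, adjusted p = 0.0018), with the same limit on how it entered. The remaining risers were Mir301 in Ska2 (1.07), Mir1983 (1.38), Mir5119 in Cdk12 (1.21), Mir692-1 (1.47), Mir1934 (1.45) and Mir6236 (1.06), beside Mirlet7a-1, Mir7-1, Mir703 and Mir103-2. Each of these 10 lost its call under the mitochondrial scaling. Under total counts and DESeq2, Mir692-1, Mir1934, Mir6236, Mir7-1, Mir703 and Mir103-2 lost it too, and Mir692-1 also under limma-voom and with the 2 groups alone. Mir5119 lost it also without induced library 1, Mir692-1 without induced library 2 or uninduced library 3, Mir1934 without induced library 1 or 3 or uninduced library 1 or 3, and Mir6236 when any 1 of 7 libraries was left out. Mir692-1 shares 30-base stretches with ferritin light chain copies such as Ftl1, Mir703 with Eef1a1 and Mir1983 with Gm30122, so their counts are uncertain. Over all the loci, not the risers alone, 7 of the 146 with a RefSeq hairpin sequence shared such a stretch with a gene elsewhere. The loci without such a sequence were not searched.

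The 118 intronic loci were set beside their 114 host genes, since a hairpin in an intron reports unspliced host RNA. In the activator line 50 of these loci fell, 5 rose and 63 were not called (median log2 fold change −1.09). With TMM scaling 51 hosts were higher, 51 lower and 12 not called (median 0.06), where 34.9% of all genes tested were called lower and 35.5% higher. With total counts 32 were higher and 71 lower, and with the mitochondrial scaling 1 was higher and 110 lower (median −0.68). The hairpin's estimate lay below its host's in 94 cases and above it in 24, with a median difference of −0.96. Summed over loci, the intronic hairpins went, with TMM scaling, to 0.524 times and their hosts to 0.976 times the uninduced level, the latter from 19826 ± 35.8 to 19346 ± 238 CPM. In the control line the same ratios were 0.943 and 0.992, and in the repressor line 0.919 and 0.996. The counting rule is not given in the sources used here, so whether host counts hold intron reads is not known.

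Of the 50 intronic loci that fell, 29 had a host that fell, 16 a host that rose and 5 a host that was not called, all with TMM scaling. With total counts 8 of those 16 hosts were called higher and 3 lower, and with the mitochondrial scaling 0 were higher and 16 lower. Of the 63 intronic loci not called, 24 had a host that fell, 32 a host that rose and 7 a host that was not called, again with TMM scaling. Mir3109 lies in an intron of Anxa2, a membrane-binding annexin (chromosome 9, 69456944 to 69457031). It was at 1.04, 1.70 and 1.52 CPM uninduced and 0.382, 0.332 and 0.409 CPM induced (a log2 change of −1.87, SE 0.32, adjusted p = 2.7e-07). Anxa2 rose from 614 ± 6.23 to 754 ± 22.1 CPM (0.30, SE 0.02). Anxa2 was at 0.08 with total counts and at −0.44 with the mitochondrial scaling, so the direction of the host depends on the scaling, while the estimate of Mir3109 lay below that of Anxa2 in the same libraries.

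Mir1898 lies in Zfr, an RNA-binding zinc-finger gene. Mir1898 was at 1.84, 1.66 and 1.15 CPM before and 0.546, 1.26 and 0.512 CPM after induction, with 1 induced library inside the uninduced range (−1.11, adjusted p = 0.00044), while Zfr rose with TMM (0.58) and was at −0.15 with the mitochondrial scaling. Mir7063 in the clathrin adaptor gene Ap2a2 had 34 counts against 6 (−2.10) while Ap2a2 rose with TMM (0.29) and was at −0.44 with the mitochondrial scaling. In other pairs the calls had the same direction: Mir5125 and the splicing factor Srrm2 both fell (−0.52 and −0.56), and Mir7-1 and Hnrnpk both rose under TMM scaling (0.51 and 0.48). Mir5119 rose while its host Cdk12, a kinase of elongating polymerase, fell (1.21 and −0.37).

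**Figure D5:**
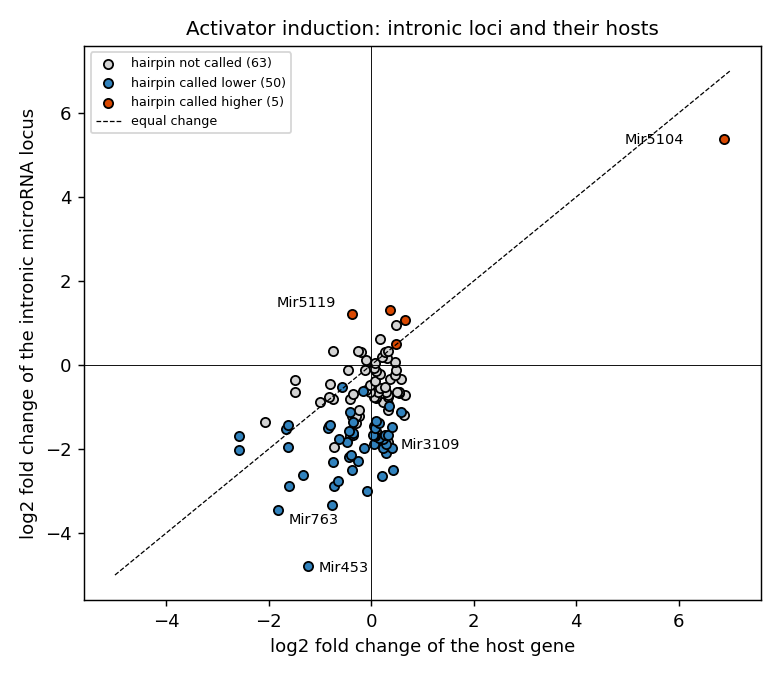
Log2 fold change on activator induction of each of the 118 intronic microRNA loci against that of its host gene, both with TMM scaling. Points below the dashed line of equal change are loci whose estimate lay below the host's (94 of 118), and colours give the call of the locus, with 50 lower, 5 higher and 63 not called.

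Across the 118 intronic loci both changes had a Pearson correlation of 0.59 and a Spearman correlation of 0.38, given as a description, since both come from the same libraries and Mir5104 lies far from the rest. The change was not closely related to hairpin GC content (Pearson −0.04 over 146 loci) or to distance from the host's start (Spearman −0.10 over 118). It had a Spearman correlation of −0.26 with host length. Intronic loci that fell had hosts with a median span of 81.0 kb, against 53.4 kb for those not called. Loci that fell also had more counts (median 134 summed) than those not called (79), and more counts make a call easier.

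By position, 42.4% of the intronic loci fell (median −1.09), 47.1% of the 17 exonic ones (−0.93) and 38.2% of the 34 outside the genes searched as hosts (−0.83). Over all 175 loci 41.7% fell, and over all genes tested 34.9% were called lower. Of the 6 loci on the opposite strand of a gene, 2 fell and 1 rose (−0.56). Without a known strand setting, reads of the gene on the other strand cannot be told apart at those 6, which include Mir99a. None of the 146 hairpins with a RefSeq hairpin sequence shared a 15-base word with the 12 satellite gene models searched. The remaining loci had no such sequence and were not searched.

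In the repressor line no microRNA locus passed the threshold on induction. Of the 175 loci 0 were called, against 8.79% of all genes in either direction, and DESeq2 and limma-voom also called 0. The share over all genes includes protein-coding genes, with a median of 9045 summed counts against 106 for the loci, so it is no share at equal depth. At an unadjusted p below 0.05 there were 8 microRNA loci, with 2 higher and 6 lower, and the median log2 fold change of the loci was −0.05. The lowest adjusted p, 0.103, belonged to Mirlet7a-2, which had 32 counts uninduced and 12 induced (log2 fold change −1.25, SE 0.49). Mir763 was at 4.09 ± 0.308 CPM uninduced and 3.67 ± 0.383 CPM induced. The median SE of a locus was 0.52 on the log2 scale, so small changes were not detectable at this depth.

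The control line likewise had 0 of 175 loci called in its induction, where 0.438% of all genes were called, and 0 with DESeq2 and limma-voom. Here 8 loci had an unadjusted p below 0.05 (3 higher and 5 lower), and the median was −0.08. Mir6236 had the lowest adjusted p, 0.294, with 64 counts uninduced and 27 induced. Mir221, one of the 8, was at 0.646 ± 0.0785 CPM uninduced and 1.02 ± 0.131 CPM induced (a log2 change of 0.68, adjusted p = 0.425).

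The change in the activator line was tested against that in the control line. 42 loci (24.0%) were lower and 5 (2.86%) higher by this difference, against 30.6% and 28.2% of all genes, and the median difference was −0.87. Among those lower were Mir763 (log2 difference −3.24, SE 0.24), Mir221 (−3.19, SE 0.50), Mir31 (−2.57, SE 0.38), Mir99a (−2.68, SE 0.66), Mirlet7e (−2.14, SE 0.41), Mirlet7b (−2.09, SE 0.65) and Mir3109 (−1.45, SE 0.40). The 5 higher ones were Mir6417 (3.01), Mir1934 (2.94), Mir6236 (2.43), Mir692-1 (2.02) and Mir301 (0.94). For Mir1934 and Mir6236 the change in the activator line alone was 1.45 and 1.06, and the rest of the difference lies in the control line. There Mir1934 had 5, 7 and 4 counts uninduced and 3, 2 and 1 induced, and was not called. Mir6236 had 30, 25 and 9 counts there uninduced and 11, 12 and 4 induced, also without a call. Mirlet7a-1 (1.05, adjusted p = 0.0869) missed the threshold. The call of Mir301 was lost when any 1 of 12 libraries was left out and under 7 processing alternatives (adjusted p up to 0.614), and that of Mir692-1 when any 1 of 5 libraries was left out and under 5 processing alternatives (up to 0.323). Mir5104 was not called in this test, where the control line held 0 counts of it uninduced and 2 induced. For the repressor line the difference from the control line was called in 0 loci, against 2.44% of all genes, with 5 at an unadjusted p below 0.05.

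Before induction few of these loci were called between lines. The median SE of a locus was 0.50 on the log2 scale in both comparisons below, so small differences were not detectable at this depth. The shares over all genes include protein-coding genes, with a median of 9045 summed counts against 106 for the loci. Between the uninduced activator and control lines 1 locus was called, against 17.6% of all genes: Mir221 was higher in the activator line (1.49 ± 0.526 against 0.646 ± 0.0785 CPM, a log2 fold change of 1.15 with SE 0.30, adjusted p = 0.0023). The starting level of Mir221 in the activator line was thus above the control line's, and its fall on induction took it below. Between the uninduced repressor and control lines 1 locus was called, against 1.45% of all genes. This was Mir763 (4.09 ± 0.308 against 5.59 ± 0.475 CPM, a log2 fold change of −0.46 with SE 0.13, adjusted p = 0.0407). Its call was lost without control uninduced library 1 or 2 or any repressor uninduced library, and under 5 processing alternatives (adjusted p up to 0.237).

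Genes that make and use microRNAs moved in both directions in the activator line with TMM scaling. Of 34 names looked up, 31 were tested, 15 rose, 15 fell and 1 was not called (median −0.07), where 34.9% of all genes were called lower and 35.5% higher. The rises depend on the scaling: with the mitochondrial one 0 of the 31 rose and 28 fell, and with total counts 7 rose and 22 fell. Drosha, the nuclear hairpin cutter, rose from 192 ± 3.09 to 264 ± 16.4 CPM (log2 fold change 0.46, but −0.28 with the mitochondrial scaling), while its partner Dgcr8 fell from 91.1 ± 3.11 to 73.2 ± 2.34 CPM (−0.32). The exporter Xpo5 (−0.17), the cytoplasmic cutter Dicer1 (−0.42), the effector Ago2 (−0.33) and its partner Tnrc6a (−0.83) fell, and the RNA helicase Mov10 rose (0.72, but −0.01 and not called with the mitochondrial scaling). The let-7 inhibitors Lin28a (−1.38) and Lin28b (−1.02) fell from levels near 1.54 and 1.84 CPM. In the repressor line 1 of the 31 rose and 2 fell, where 8.79% of all genes were called, and in the control line 0 were called, where 0.438% were.

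A list of 10 noncoding genes was drawn up by name, without a check by position that each hosts a microRNA. Of these, 8 were tested, and in the activator line 2 rose and 6 fell (median −0.68). Among all genes, 34.9% were called lower and 35.5% higher. Dnm3os, which carries the miR-199 and miR-214 hairpins on the strand opposite a dynamin gene, fell from 49.6 ± 1.69 to 17.3 ± 0.182 CPM. Meg3 (−0.72) and Mirg (−1.23), noncoding genes of the imprinted microRNA cluster that also holds Mir453, fell. The abundant noncoding gene Gm26917 rose from 111489 ± 7340 to 194100 ± 19041 CPM (log2 fold change 0.80, but 0.06 and not called with the mitochondrial scaling). In the repressor line 3 of the 8 rose and 1 fell, where 8.79% of all genes were called in either direction. In the control line 0 were called, where 0.438% of all genes were.

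The endothelial markers Pecam1 and Tek, the 2 of 4 that were tested, rose in the activator line. The summed level of the 4 was 0.304 to 0.703 CPM in uninduced and 19.2 to 23.9 CPM in induced activator libraries, nearly all of it Pecam1, and at most 1.25 CPM in any other library. In the repressor line Tek fell and Pecam1 was not called. The fibroblast list had 5 genes higher and 2 lower in the activator line (0 higher and 9 lower with the mitochondrial scaling), and 7 lower in the repressor line. Among all genes tested with TMM scaling, 34.9% were called lower and 35.5% higher in the activator line. In the repressor line 8.79% were called in either direction. The part of these shifts and of Gm26917 in the changes of the microRNA loci was not tested.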

How the data were processed

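The authors deposited 1 table of raw gene counts, whole numbers, for 18 stranded, rRNA-depleted total RNA libraries. Per the submitters' processing notes the genome build was mm10. Not given in the sources used here are the aligner, the counter, its annotation and its strand setting. Symbols and positions came from GENCODE release M21 (GRCm38, 47310 of 47937 IDs found) and mature sequences from RefSeq. The host of a locus was a gene that contains it, on the same strand where there was one. Genes whose symbol begins with Mir or Mirlet and a number, hosts ending in hg included, were left out of this search. Coding genes came before long noncoding ones, and among equals the shortest was taken. Genes with at least 50 summed counts (17795) were fitted with edgeR 4.0.16 (R 4.3.3), with TMM scaling, the robust quasi-likelihood test, 1 coefficient per group and 12 residual degrees of freedom. SE is the log2 fold change divided by the square root of F. The common biological coefficient of variation was 0.0243. In counts simulated from all libraries except the induced activator ones, with a fixed spread, 78.8% of 2-fold and 93.8% of 4-fold changes were recovered. The simulation covered 17141 genes of all classes, and no such rate was worked out for loci with few counts. Exact ratio intervals are at 95%. Named loci are the 10 with the highest mean CPM, up to 10 called loci per induction with the largest non-overlapping changes, up to 5 per other comparison, and well-known loci. Alternatives were other scalings, DESeq2 1.42.0, limma-voom (limma 3.58.1), other filters, the compared groups alone, a replicate block and leaving out each library. The loci and lists were chosen with earlier results of these data known.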

Additional observations from a re-analysis of the deposited data

Results flagged for a closer look

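The change on induction of 47 microRNA loci differed between the activator and control lines by the interaction test in edgeR (adjusted p below 0.05), with 42 lower and 5 higher in the activator line. These are 24.0% and 2.86% of the 175 loci, against 30.6% and 28.2% of all genes tested. The 5 largest called differences in log2 units were those of Mir453 (−5.02), Mir222 (−3.87), Mir505 (−3.37), Mir3108 (−3.36) and Mir763 (−3.24). The values of the first 4 depend on the prior count, since Mir453 had 0 counts and the others 1 or 2 in the induced activator libraries. The difference of Mir505 was not called without activator uninduced library 3 (adjusted p = 0.0514). Time of induction differed between these lines and cannot be told apart from the effector.

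Loci under the minimum of 50 counts were outside the comparisons, and 2 of them had most of their counts in the induced activator libraries. Mir6244 had 34 counts there (10, 9 and 15) and 1 in the other 15 libraries. Mir466i had 36 there (12, 9 and 15) and 10 in the other 15. Over the 426 loci under the minimum, the summed level was 18.9 CPM in the uninduced and 14.2 CPM in the induced activator libraries, so these 2 run against the sum.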

How the results depend on the processing

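The count of called loci in the activator induction, 86, was 56 with filterByExpr (8 higher and 48 lower), which tested 83 of the 175 loci, and 66 to 87 when 1 library was left out. Of the 73 falls 34, and of the 13 rises 3, kept their call in every alternative that tested them. Scaling to mitochondrially encoded genes moved the median of all genes to −0.74 and of the loci to −1.70, left 3 rises, reversed Mir7-1 (−0.23) and Mir703 (−0.23) and gave 84 loci in the comparison with the control line, against 47 (40 to 47 without 1 library). In the control induction 1 locus was called with that scaling, without a filter and with the groups alone, against 0. Between uninduced activator and control lines, 2 loci were called with that scaling and without a filter, against 1 (1 to 3 without 1 library). The 1 locus between uninduced repressor and control lines became 0 under total counts, mitochondrial scaling, DESeq2, limma-voom and no filter (0 to 1 without 1 library). The cause was not tested. A replicate block within each line gave 80 activator calls and a block across lines, chosen after seeing the data, gave 85. Libraries with the same number correlated between −0.075 and 0.130 in their deviations, so the numbers were not taken as pairs. Few counts per locus limit the calls.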
